A study of Homo sapiens with 3 samples.

Results

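Histone H2A deubiquitinases are the enzymes reported to take ubiquitin off histone H2A, and in some cases off H2B. The group described here was taken by gene symbol, and its 8 genes (USP16, USP3, USP21, USP22, USP12, USP46, BAP1 and MYSM1) were all found among the 59719 gene names of the deposited table. All 8 had a mean of at least 1 TPM (a read share scaled by gene length and library total) over the libraries, as did 13637 genes in total. The symbols were chosen from what these enzymes are known to do and not from their levels, although earlier results of these data were known. The question was whether any other enzyme of the group was higher where USP16 was lower.

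The data are 3 RNA-seq libraries of PC3, a human prostate cancer cell line that grows without androgen. The control library came from cells expressing shCON, the vector control, and the other libraries came from cells expressing shUSP16#1 or shUSP16#2, both short hairpin RNAs against USP16. Hairpins were carried by the pLKO.1 vector and stable transformants were kept after selection with puromycin, and the sources used here do not say how many clones a line holds. Each condition is a single library (1 per group), so nothing could be tested between conditions and no spread is known for any value below. Both comparisons use the same shCON library, so their changes are not independent of each other.

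Ubiquitin on a lysine of the C-terminal tail of H2A is placed by Polycomb repressive complex 1 and accompanies gene repression. It is removed before mitosis and when genes are switched on, and USP16 is one of the enzymes that do this. Ubiquitin on H2B accompanies transcribed genes and is removed mainly by USP22 within the SAGA coactivator complex. The members belong to separate catalytic families. USP16, USP3, USP21, USP22, USP12 and USP46 are ubiquitin-specific proteases, BAP1 is a ubiquitin C-terminal hydrolase, and MYSM1 is a zinc metalloprotease.

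The hairpin sequences are shown because they define the knockdown. They are the 21-base sense targets in USP16, with capitals marking the bases that pair with bases 2 to 8 (the seed) of the antisense guide strand.
shUSP16#1: gccagaagaaatcATGTTTAt
shUSP16#2: cggtgatattccaCAAGATTt
In GENCODE release 29 on GRCh38, USP16 (ENSG00000156256) spans 29024629 to 29054488 of chromosome 21 on the forward strand. The shUSP16#1 target is part of exon 19 of 19, in the 3′ UTR, from 29054296 to 29054316. The shUSP16#2 target lies in the coding sequence across the junction of exons 18 and 19, between 29053942 and 29054069. Neither 21-base target was found in full in a transcript of any other gene (0 genes for each hairpin).

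The longest run of bases that a target shared with the transcript of another member was 10 bases, between shUSP16#1 and MYSM1. For the other members this run was 7 to 9 bases. The seed match of shUSP16#1, ATGTTTA, was read on the sense strand of 1 transcript per gene, the one with the longest coding sequence. It was present 3 times in MYSM1 and 1 time each in USP22, USP12 and USP46, and was not found in USP3, USP21 or BAP1. It was held by 24.9% of the 11488 protein-coding genes above the same minimum of 1 TPM. The seed match of shUSP16#2, CAAGATT, was present 2 times in USP21 and 1 time each in USP3, USP12 and BAP1, and was held by 22.4% of those genes. A match of 7 letters is a description of the sequence and is not evidence of a site.

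The targeted gene USP16 had 19.92 TPM in the control, 3.5 TPM with shUSP16#1 and 1.08 TPM with shUSP16#2. Both hairpin libraries were far below the control, at 17.6% and 5.42% of its level. On the log2(TPM + 1) scale, which is used for all changes and understates those of low genes, USP16 fell under both hairpins, with log2 changes of -2.22 (shUSP16#1) and -3.33 (shUSP16#2). These changes lay at percentiles 0.532 and 0.268 of the 13637 genes. The libraries therefore carried the knockdown their labels name, with the lower level under shUSP16#2. AF129075.2, an antisense gene that shares 149 exonic bases with USP16, was at 1.16, 1.35 and 0.54 TPM. Whether reads were counted by strand is not given in the sources used here, so the remaining USP16 levels are uncertain to that extent.

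In shCON, BAP1 and USP22 were the most abundant members and held 60.1% of the summed level of 177.28 TPM. TPM divides by gene length, so these levels can be set side by side. The order in shCON was BAP1 (55.14 TPM), USP22 (51.35 TPM), USP16 (19.92 TPM), USP21 (15.02 TPM), USP12 (14.26 TPM), USP3 (9.32 TPM), USP46 (6.17 TPM) and MYSM1 (6.1 TPM). With 1 library, whether neighbours in this order differ is not known, and the closest pairs were USP46 with MYSM1 and USP21 with USP12. Under shUSP16#1 USP16 moved from the 3rd to the 6th place of the 8, and under shUSP16#2 to the 8th. BAP1 and USP22 kept the first places in all 3 libraries.

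**Figure D1:**
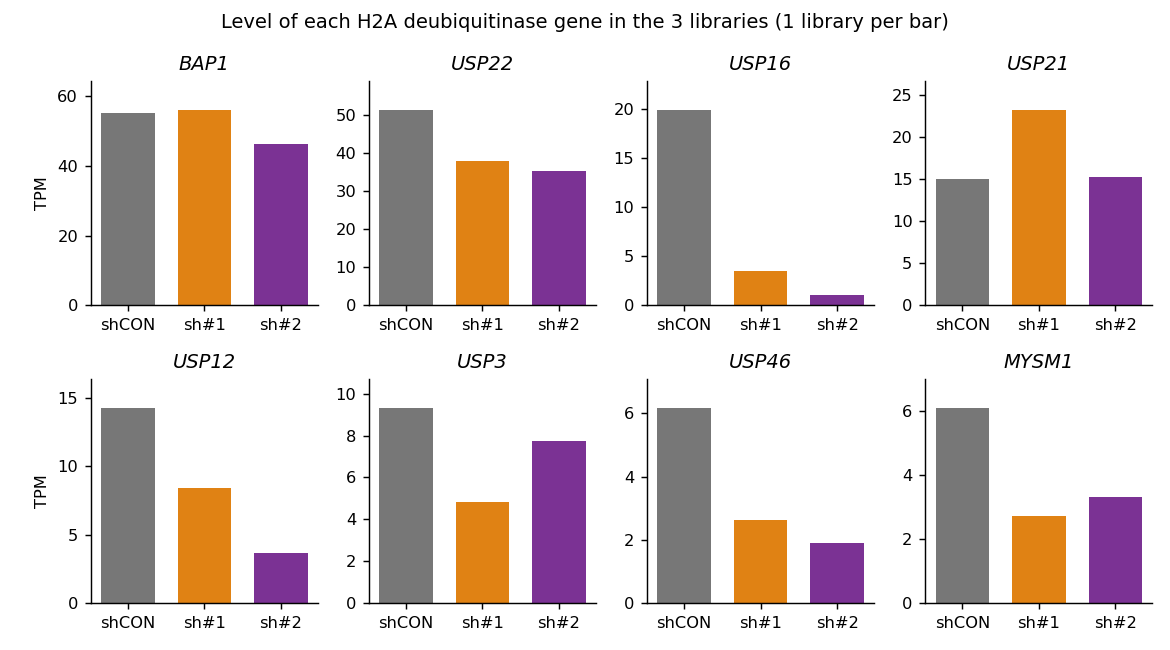
Level of each member in TPM (vertical axes, each starting at 0 with its own scale) in the shCON, shUSP16#1 (sh#1) and shUSP16#2 (sh#2) libraries, 1 library per bar and members in order of their shCON level. USP16 falls from 19.92 TPM to 3.5 and 1.08 TPM, USP21 stands highest under shUSP16#1 at 23.13 TPM, and USP12, USP46, MYSM1 and USP22 stand highest in shCON.

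None of the 7 other members was at least 2-fold higher than in shCON under either hairpin, on the log2(TPM + 1) scale (0 of 7 under each). Among all genes 2.83% were past this threshold under shUSP16#1, 2.8% under shUSP16#2 and 1.14% under both. At least 2-fold lower under both hairpins was 1 member of 8, the targeted USP16, against 4.6% of all genes. The 7 others summed to 157.36 TPM in the control, to 135.66 TPM with shUSP16#1 and to 113.57 TPM with shUSP16#2, or 86.2% and 72.2% of the control. Loss of RNA per cell and loss of cells that express a gene cannot be told apart in these bulk libraries.

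Under both hairpins, more of all genes lay below shCON than above it on this scale. TPM is scaled to the library total, so this does not show that a library held less RNA. Over all genes the median log2 change was -0.17 (shUSP16#1) and -0.37 (shUSP16#2), and over the 7 other members it was -0.70 and -0.53. Relative to all genes, the members' medians were -0.53 and -0.16. Below shCON under both hairpins were 5 of the 7 others (USP3, USP22, USP12, USP46 and MYSM1), where 57.2% of all genes were, and above it under both was 1 (USP21), where 24.5% of all genes were. Counted relative to the median of all genes, 4 of the 7 were lower under both (USP22, USP12, USP46 and MYSM1), against 41.7% of all genes, and 2 were higher under both (USP21 and BAP1), also against 41.7%. With 7 genes and no test, nothing particular to the group is read from these counts.

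**Figure D2:**
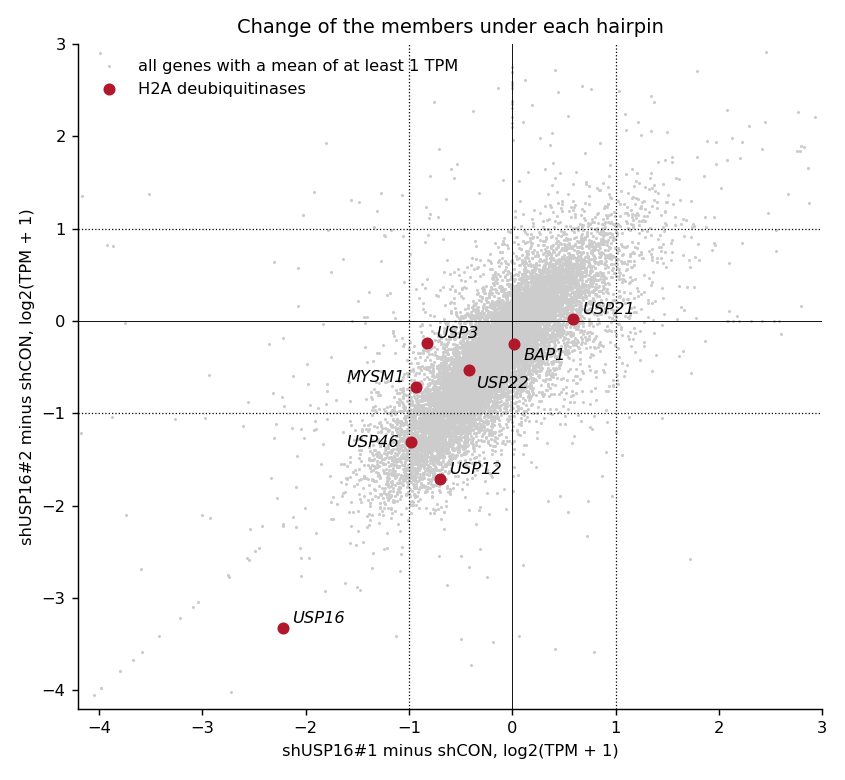
Log2 change of each gene under shUSP16#1 (horizontal axis) and shUSP16#2 (vertical axis) against shCON on the log2(TPM + 1) scale, with members in red, all 13637 genes in grey and dotted lines at 2-fold; genes beyond the axes are not drawn. USP16 lies alone among the members in the lower left, past 2-fold under both hairpins, and no member lies past the upper or right dotted line.

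USP12 and USP46 had the lowest mean changes of both hairpins after USP16, although under shUSP16#1 alone MYSM1 and USP3 were lower than USP12. They are close relatives that need the WD-repeat cofactor WDR48 for activity and act on H2A and H2B. USP12 (ENSG00000152484, chromosome 13 from 27066142 to 27171896) had 14.26 TPM in the control, 8.37 TPM with shUSP16#1 and 3.65 TPM with shUSP16#2, with log2 changes of -0.70 and -1.71. USP46 (ENSG00000109189, chromosome 4 from 52590972 to 52659335) was at 6.17, 2.64 and 1.9 TPM, with log2 changes of -0.98 and -1.31. Both were lowest under shUSP16#2, the library with the least USP16, and both were past 2-fold there, as were 19.5% of all genes. Under shUSP16#1 neither was, where 5.79% of all genes were, although USP46 was just inside the threshold. In TPM itself USP46 was 2.34-fold and 3.25-fold lower, and with a pseudocount of 0.1 it joined USP16 as lower under both hairpins (2 members).

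The coding sequences of USP12 and USP46 were identical at 77.1% of 1092 aligned bases, and no 50-base word of either was found in the other. Read length and the handling of reads with several matches are not given in the sources used here. Of the 50-base words of USP12, 6.88% were also found in transcripts of 3 other loci, among them the pseudogene USP12PX, which was listed at 0 TPM in all 3 libraries. For the remaining members this share was at most 0.131%. USP46-AS1, an antisense-named gene next to USP46 that does not overlap it in GENCODE release 29, was at 2.64, 0.97 and 1 TPM.

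MYSM1 (ENSG00000162601, chromosome 1 from 58654739 to 58700092), the metalloprotease of the group and known for its role in blood stem cells, had 6.1 TPM in the control, 2.71 TPM with shUSP16#1 and 3.32 TPM with shUSP16#2. Its log2 changes were -0.94 and -0.72, or -0.77 and -0.35 relative to all genes. Here the library with less USP16 had the higher level of the 2 hairpin libraries. Neither change was past 2-fold on the log2(TPM + 1) scale, but in TPM itself the level under shUSP16#1 was 2.25-fold below shCON.

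USP3 (ENSG00000140455, chromosome 15 from 63504511 to 63594640), which acts on H2A and H2B and in the DNA damage response, was at 9.32, 4.84 and 7.75 TPM. Its log2 changes were -0.82 under shUSP16#1 and -0.24 under shUSP16#2. Relative to all genes these were -0.65 and 0.13, so the sign differed between the hairpins. USP3-AS1 lies on the opposite strand across part of USP3, shares 1760 exonic bases with it, and was at 3.83, 2.3 and 2.17 TPM. The sources used here do not say whether reads were counted by strand, so reads of such a pair cannot be told apart, and the levels of USP3 are uncertain to that extent.

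USP22 (ENSG00000124422, chromosome 17 from 20999593 to 21043760) is the ubiquitin protease of the SAGA complex. It had 51.35 TPM in the control, 38.03 TPM with shUSP16#1 and 35.37 TPM with shUSP16#2. Its log2 changes of -0.42 and -0.53 were the most alike of any member under both hairpins, and relative to all genes they were -0.25 and -0.16. AC087393.2, an antisense gene that shares 504 exonic bases with USP22, was at 1.07, 1.88 and 4.1 TPM and so was highest in the library where USP22 was lowest. The amount of this gene was small beside USP22 in every library.

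USP21 was the only member listed above shCON under both hairpins. It removes ubiquitin from H2A and has been linked to the start of transcription. USP21 (ENSG00000143258, chromosome 1 from 161159450 to 161165723) had 15.02 TPM in the control, 23.13 TPM with shUSP16#1 and 15.24 TPM with shUSP16#2. The level was thus 1.54-fold higher under shUSP16#1 and 1.01-fold higher under shUSP16#2, the library in which USP16 was lower. The log2 changes were 0.59 and 0.02, at percentiles 91.5 and 71.5 of all genes. Relative to all genes they were 0.76 and 0.39.

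BAP1 (ENSG00000163930, chromosome 3 from 52401013 to 52410350), a tumour suppressor and the catalytic subunit of the Polycomb repressive deubiquitinase, was at 55.14, 55.94 and 46.34 TPM. Its level was nearly the same in shCON and under shUSP16#1 and somewhat lower under shUSP16#2, with log2 changes of 0.02 and -0.25. Relative to all genes these became 0.19 and 0.12, so its sign under shUSP16#2 depends on the scaling.

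The members' changes were ranked much as the GC content of their transcripts, though not in the same order. GC content was 60.4% for BAP1, 57.6% for USP21, 53.3% for USP22, 43.6% for USP3, 40.6% for USP46, 38.7% for USP12, 37.8% for USP16 and 36.5% for MYSM1. Among the 7 members other than USP16 the rank correlation of GC content with the mean change of both hairpins was 0.86, and over the 13296 genes with a GC value it was 0.62. Both are across genes of the same 3 libraries, which are not independent replicates. BAP1, USP21 and USP22, the members richest in GC, were also the most abundant in shCON apart from USP16.

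A version of the changes without this trend was made by subtracting the median change of genes of like GC content (50 bins) and then restoring the overall median. Genes in the bin of USP16 had median log2 changes of -0.60 and -1.05, and USP16 itself was at -1.79 and -2.65 once the trend was removed, still past 2-fold under both hairpins. USP12 went to -0.27 and -1.04, and USP46 to -0.57 and -0.75, so USP46 was no longer past 2-fold under shUSP16#2. MYSM1 went to -0.48 and 0.02, and USP3 to -0.55 and 0.15. USP22 and BAP1, whose bins had medians of -0.06 and -0.22 and of 0.20 and 0.13, moved the other way, to -0.54 and -0.68 and to -0.35 and -0.75. USP21 went to 0.39 and -0.33, so on this adjusted scale no member had values above 0 under both hairpins (0 of 8). These values are not levels against shCON, and in TPM USP21 stood above shCON under both hairpins. With the trend removed and the changes also centred on all genes, which was chosen after seeing the data, the mean changes of USP3 and MYSM1 became 0.07 and 0.04. In that setting 1 member of 8 was above 0 under both hairpins, and the mean change of USP21 was 0.30.

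**Figure D3:**
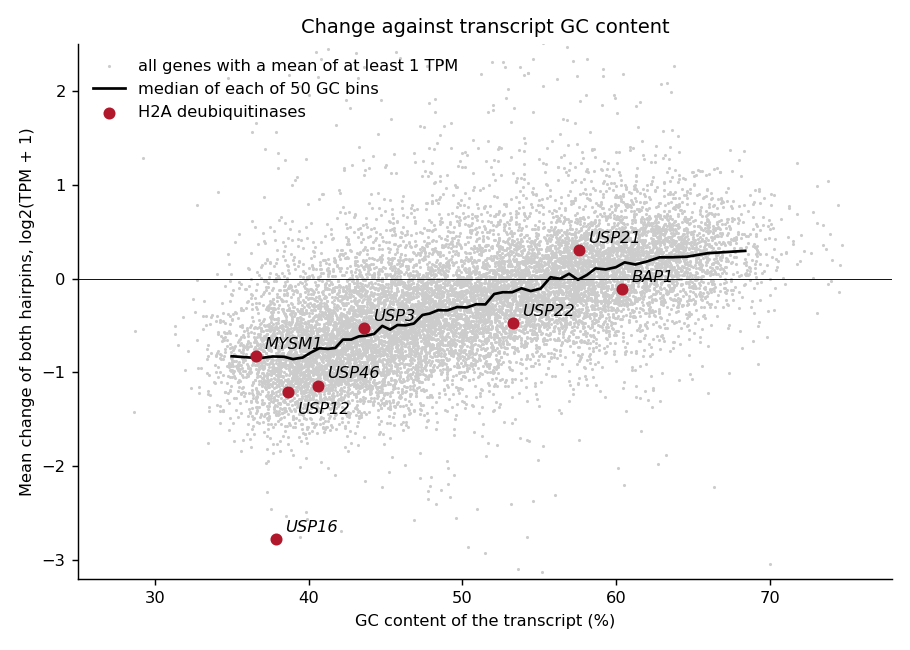
GC content of each gene's transcript in percent (horizontal axis) against the mean log2 change of both hairpins on the log2(TPM + 1) scale (vertical axis), with members in red, all genes with a GC value in grey and the median of each of 50 GC bins as a line; genes beyond the axes are not drawn. USP16 lies far below the line at 37.8% GC, MYSM1 and USP3 lie close to it, USP12, USP46, USP22 and BAP1 lie below it and USP21 lies above it.

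The members' own cofactors were described next, as each enzyme works in a complex. In the SAGA deubiquitinase module with the relatives of USP22 (8 genes), 6 genes averaged 1 TPM or more. None of them was past 2-fold under both hairpins, where 4.6% of all genes were lower and 1.14% higher. Their median log2 changes were -0.10 and -0.21. ENY2, a small subunit shared with an mRNA export complex, was lowest at 266.54, 157.98 and 124.16 TPM. ATXN7L2 had the highest change at 2.84, 3.57 and 3.16 TPM. ATXN7L3, the adaptor that activates USP22, was at 64.05, 71.73 and 59.57 TPM, close to shCON under both hairpins. USP27X and USP51, the relatives that can use the same adaptor, were below 1 TPM in every library, with USP27X at 0.96, 0.64 and 0.95 TPM and USP51 at most at 0.04 TPM. Neither relative was thus above 1 TPM where USP22 was lower.

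For USP12 and USP46, the cofactor WDR48 was at 9.78, 8.73 and 4.82 TPM and WDR20, a further WD-repeat activator, at 14.74, 10 and 7.38 TPM. Both were lowest under shUSP16#2, as USP12 and USP46 were. On the log2(TPM + 1) scale neither was past 2-fold there, where 19.5% of all genes were lower by that much. In TPM itself WDR48 was just past 2-fold lower under shUSP16#2. DMWD, a relative of WDR20, was at 15.99, 20.69 and 16.42 TPM.

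The BAP1 complex had 9 of 10 genes averaging 1 TPM or more. Of these 8 (88.9%) were below shCON under both hairpins, against 57.2% of all genes, and 1 (MBD6) was above it, against 24.5%. Past 2-fold under both on the log2(TPM + 1) scale were 0, where 4.6% of all genes were lower and 1.14% higher. Their median log2 changes were -0.29 and -0.58. ASXL2, one of the ASXL proteins that activate BAP1, was lowest at 4.39, 1.8 and 1.58 TPM, and ASXL1 was at 40.49, 29.67 and 22.43 TPM. MBD6, a methyl-CpG-binding-domain protein that binds the complex, was highest in change at 7.66, 9.16 and 11.3 TPM. OGT, the enzyme that adds N-acetylglucosamine to nuclear proteins, and HCFC1, a scaffold of transcription factors, were at 30.95, 27.88 and 15.18 TPM and at 30.24, 19.22 and 19.86 TPM. With the GC trend removed, the medians of the complex were -0.31 and -0.82, beside -0.35 and -0.75 for BAP1 itself.

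Partners of USP16 and MYSM1 were few. HERC2, a large ubiquitin ligase that binds USP16, was at 21.99, 16.79 and 11.39 TPM. PLK1, a mitotic kinase reported to be a substrate of USP16, was at 103.46, 67.6 and 59.96 TPM, and KAT2B, an acetyltransferase that binds MYSM1, was under 1 TPM in all 3 libraries. Neither HERC2 nor PLK1 was past 2-fold.

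Of 11 other enzymes reported to act on ubiquitinated histones, 8 had a mean of at least 1 TPM. None of them was higher by 2-fold under both hairpins, against 1.14% of all genes. BRCC3, which cuts lysine-63-linked ubiquitin chains at DNA breaks, was lower under both at 14.19, 6.05 and 4.65 TPM (log2 changes -1.11 and -1.43). It was the only 1 of the 8 past 2-fold lower under both (12.5%), against 4.6% of all genes. USP7, which also stabilizes MDM2, was at 34.89, 17.35 and 14.43 TPM with log2 changes of -0.97 and -1.22, and USP10 was at 69.42, 39.13 and 34.47 TPM. OTUB1, which blocks ubiquitin transfer at DNA breaks, was the only one above shCON under both, where 24.5% of all genes were. Its levels were 136.3, 151.18 and 149.84 TPM. USP26, USP29 and USP44 were listed at 0 TPM in all 3 libraries.

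On the side of the ligases, all 14 genes of the H2A ligase list had a mean of at least 1 TPM, 11 (78.6%) were below shCON under both hairpins, against 57.2% of all genes, and 2 were above, against 24.5%. Past 2-fold lower under both were 2 (14.3%), against 4.6% of all genes. These were BARD1, the partner of BRCA1, at 5.97, 2.12 and 1.19 TPM, and PCGF5, a Polycomb RING finger protein, at 20.35, 7.45 and 8.69 TPM. The 2 catalytic subunits of Polycomb repressive complex 1 lay on opposite sides of shCON. RING1 was at 23.91, 35.4 and 32.07 TPM, while RNF2 was at 5.53, 3.08 and 2.11 TPM and its partner BMI1 at 20.31, 11.28 and 5.85 TPM. PCGF3 had the highest change of the list at 7.72, 10.94 and 12.41 TPM. The median log2 changes of the list were -0.56 and -1.08, or -0.39 and -0.71 relative to all genes. Its median GC content was 42.6%, and with the GC trend removed its medians were -0.29 and -0.51. The medians of all genes were -0.17 and -0.37 without that step.

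The 6 genes that place ubiquitin on H2B had median log2 changes of -0.36 and -0.41. Past 2-fold under both hairpins were 0, where 4.6% of all genes were lower and 1.14% higher. WAC, an adaptor of the ligase, was lowest at 22.87, 11.93 and 8.71 TPM. Of the ligase itself, RNF20 was at 9.94, 6.47 and 4.49 TPM, while RNF40 was close to shCON at 38.52, 40.31 and 35.63 TPM. The 6 readers of ubiquitinated H2A were all below shCON under both hairpins, against 57.2% of all genes. Past 2-fold lower under both was 1, against 4.6% of all genes. That was DNAJC2, also known as ZRF1, at 22.88, 9.26 and 5.51 TPM. The median GC content of the readers was 39.6%. With the GC trend removed their median log2 changes were -0.27 and -0.42, against -0.17 and -0.37 for all genes without that step. JARID2, which brings Polycomb repressive complex 2 to the mark, had the mean change nearest 0 at 5.04, 3.73 and 2.36 TPM.

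Of the genes that encode ubiquitin itself, UBB was at 1337, 1314 and 1471 TPM, with log2 changes of -0.03 and 0.14. RPS27A, which encodes ubiquitin fused to a ribosomal protein, was at 2062, 1976 and 1983 TPM, with log2 changes of -0.06 under both hairpins.

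Over the 9 lists together, 58 of 65 genes had a mean of at least 1 TPM. Of these 46 (79.3%) were below shCON under both hairpins, against 57.2% of all genes, 4 (6.9%) were past 2-fold lower under both, against 4.6% of all genes, and 0 were past 2-fold higher under both, against 1.14%. The median GC content of these genes was 45.3%, against 49.98% for all genes. The 4 genes past 2-fold were BRCC3, PCGF5, BARD1 and DNAJC2. With the changes centred on all genes only DNAJC2 was left, with the GC trend removed only BRCC3, and with both none of the 4.

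**Figure D4:**
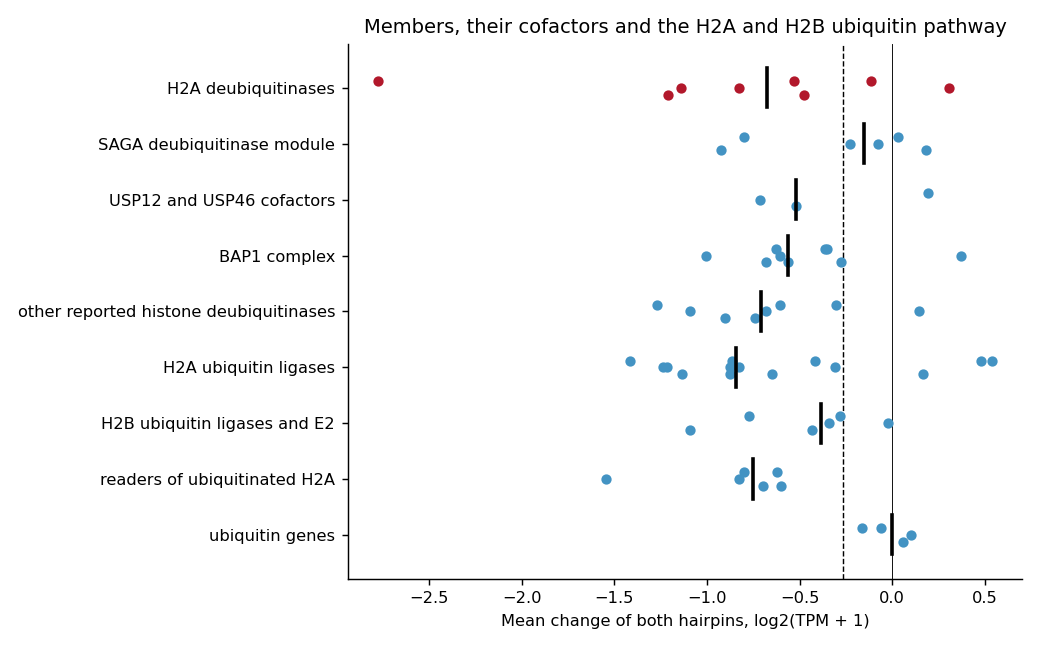
Mean log2 change of both hairpins on the log2(TPM + 1) scale (horizontal axis) for each member (red) and each gene averaging 1 TPM or more in 8 cofactor and pathway lists (blue), with list medians as bars, the median of all genes as a dashed line and no change as a solid line. Most points lie left of the solid line, with USP16 farthest left, the ubiquitin genes close to the solid line and PCGF3, RING1, MBD6 and USP21 farthest right.

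The genes whose pair of changes lay nearest to that of USP16 were sought among the 9300 other genes whose mean reached 5 TPM, by the distance between the 2 log2 changes. The nearest was PEG10, an imprinted gene derived from a retrotransposon, at 190.31, 53.45 and 24.18 TPM and a distance of 0.57. CXCL3, a chemokine, was at 369.92, 119.86 and 51.07 TPM, and POMT2, a protein mannosyltransferase, at 37.84, 8.39 and 5.56 TPM. They were followed by the pseudogene LRRC37A4P and by AC127024.7, at distances of 0.84 and 0.85. None of the other members was among them, and this likeness rests on 3 libraries.

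Epithelial genes were expressed, with KRT8 at 622 to 748 TPM, KRT18 at 778 to 947 TPM and EPCAM at 136 to 274 TPM. VIM, a mesenchymal marker, was at 96.41, 59.83 and 40.48 TPM. Of the luminal prostate genes, TMPRSS2 was at 1.13, 3.68 and 1.63 TPM. KLK3, which encodes prostate-specific antigen, was listed at 0 TPM in all 3 libraries. Of 7 markers of blood, endothelial, fibroblast and liver cells, 1 or 2 reached 1 TPM in a library, and their summed level was 4.55 to 11.54 TPM, mostly COL1A1. The number of genes at 1 TPM or more was 13763 for shCON, 13701 for shUSP16#1 and 12984 for shUSP16#2.

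**Figure D5:**
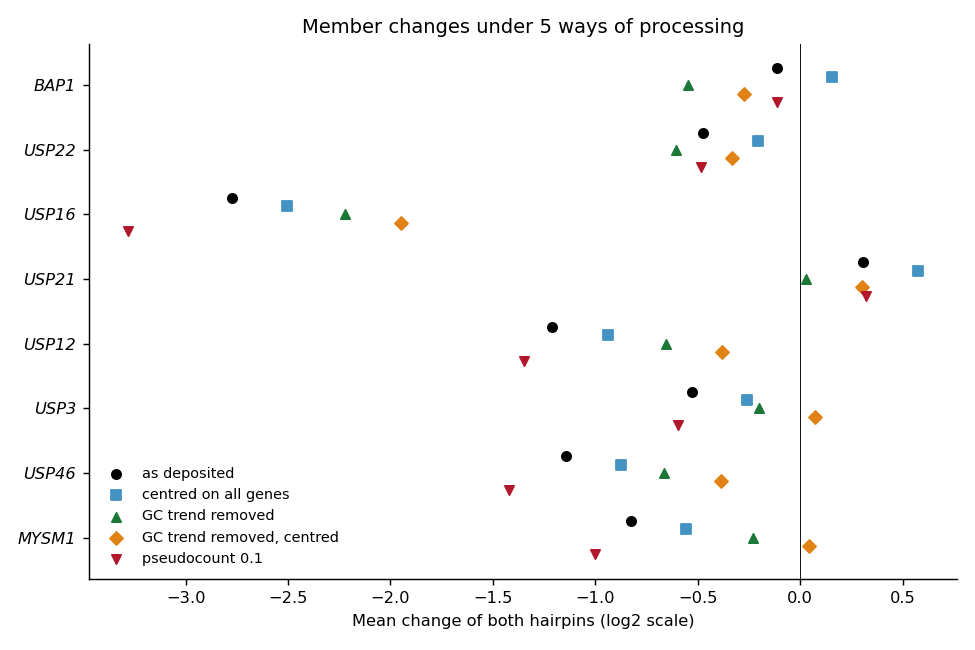
Mean log2 change of both hairpins (horizontal axis) for each member under 5 ways of processing the same values: as deposited with a pseudocount of 1, centred on the median of all genes, with the GC trend removed, with both, and with a pseudocount of 0.1. USP16 stays farthest left throughout, USP21 stays right of 0, BAP1 crosses 0 on centring, and USP3 and MYSM1 cross it with the GC trend removed and the changes centred.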

How the data were processed

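Total RNA of 3 libraries (shCON, shUSP16#1 and shUSP16#2) was prepared with an Illumina TruSeq RNA kit and sequenced by Majorbio. The values are TPM (transcript abundances scaled by length and total), which the authors deposited in 1 table, rounded to 2 decimals. The submitters' processing notes name CASAVA, HISAT2 and the build hg19, while the quantification tool and annotation release are not given in the sources used here. Of the identifiers used, 57263 of 59719 matched GENCODE release 29, which is on GRCh38, and all positions are from that release. The table also holds 3 columns that repeat the values and were not used. Depth is unknown from TPM, so no intervals are given.

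Of repeated gene names the most abundant entry was kept (1211 entries left out). Changes are log2(TPM + 1) under a hairpin minus shCON, for genes whose mean over the libraries reached 1 TPM. Genes past 2-fold were counted. GC content came from 1 transcript per gene, that of the longest coding sequence. The members and lists were chosen with earlier results of these data known. Named were all members, in each list any gene at that minimum and always those of lowest and highest mean change, overlapping genes, and the 5 genes nearest to USP16 in change. Genes below that mean, and the genes of the closing section, were named after their values were seen. Some genes of these lists are not reported here. Procedures were tested on simulated data. Tools were biopython 1.88, matplotlib 3.10.9, scipy 1.17.1, pandas 2.3.3 and numpy 2.4.6 in Python 3.11.15. Alternatives were other pseudocounts (0.1 and 5), minimums (none and 5 TPM), a 1.5-fold threshold, centring, GC trend removal, protein-coding genes only and each hairpin alone.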

Additional observations from a re-analysis of the deposited data

How the results depend on the processing

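No paired analysis was possible because there was 1 library in each condition. With no replicates, a log2 change was taken as moved where it shifted by more than the standard deviation of the 2 hairpin values. A count was taken as moved where it changed by more than 1.5-fold, or to or from 0. USP16 was past the threshold of each of the 11 alternatives, in the hairpins it used (1 hairpin in the single-hairpin settings, 1.5-fold in the looser one), and in none of them was a member past that threshold upward in every hairpin used, although USP21 was above 1.5-fold under shUSP16#1 alone (0.59). The mean log2 change of USP16 was -2.77, and it became -1.79 with a pseudocount of 5 and -1.95 with the GC trend removed and centring, a combination added after seeing the data. With each hairpin alone it was -2.22 to -3.33. The median of the 7 other members was -0.53, and it became -0.26 on centring, -0.27 with the GC trend removed and centring, and -0.53 to -0.70 in a single hairpin. The count of members lower under both hairpins was 1, and it became 2 with a pseudocount of 0.1, 4 with a 1.5-fold threshold (USP12, USP46 and MYSM1 added), and 1 to 3 in a single hairpin, where 3 came without shUSP16#1. The median of the cofactor and pathway genes was -0.61, and it became -0.10 with the GC trend removed and centring. Of these genes 4 were lower under both, which became 7 with a pseudocount of 0.1, 0 with a pseudocount of 5, 1 on centring, 1 with the GC trend removed, 0 with both, 17 with a 1.5-fold threshold, and 4 to 17 in a single hairpin. Among all genes the 627 lower became 1095, 198, 273, 270, 113 and 2836 under the same settings in that order, and 789 to 2659 in a single hairpin. Genes higher under both numbered 155, which became 287 with a pseudocount of 0.1, 43 with a pseudocount of 5, 341 on centring, 96 with a minimum of 5 TPM, 84 among protein-coding genes, 550 with a 1.5-fold threshold, and 382 to 386 in a single hairpin. A looser threshold or 1 hairpin in place of 2 raises such counts by construction, and for the remaining changes the cause was not tested.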

Other observations

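The catalytic families of the members were also looked at, as lists added after their values were seen. Of 45 other genes of the ubiquitin-specific protease family by symbol, 38 had a mean of at least 1 TPM. Of these, 30 (78.9%) were below shCON under both hairpins, against 57.2% of all genes, and 5 were above, against 24.5%. At least 2-fold lower under both were 7 (USP13, USP34, USP15, USP53, USP41, USP24 and USP1), which is 18.4% against 4.6% of all genes, and 0 were at least 2-fold higher, against 1.14%. USP20, which acts on receptors and on HIF1A, had the highest change at 6.06, 10.55 and 9.2 TPM (log2 changes 0.71 and 0.53). USP1, which takes ubiquitin off FANCD2 and PCNA and like USP12 and USP46 needs WDR48, was at 16.85, 5.45 and 4.46 TPM. USP41 was listed at 13.67, 0 and 6.11 TPM. Sequence shared with other genes was not looked for in the genes of this family list. Some of its genes, among them USP7 and USP10, were also on the list of other reported histone enzymes above. The median log2 changes of these 38 genes were -0.54 and -0.93, against -0.17 and -0.37 for all genes, and their median GC content was 45.5%. With the GC trend removed their medians were -0.34 and -0.54.

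In the family of BAP1, UCHL5, a proteasome-bound hydrolase, was at 34.88, 16.16 and 13.93 TPM. UCHL5 was past 2-fold lower under both hairpins, where 4.6% of all genes were. UCHL3 was at 71.16, 55.24 and 37.1 TPM, and UCHL1 was at most at 0.11 TPM. In the metalloprotease family of MYSM1, PSMD14, the proteasome lid enzyme, was at 137.45, 77.55 and 70.61 TPM and COPS5, which removes NEDD8 from cullins, at 51.58, 39.3 and 30.99 TPM. MPND was at 10.65, 13.31 and 10.83 TPM and was above shCON under both hairpins, where 24.5% of all genes were. Below shCON under both were 5 of the 6 relatives, against 57.2% of all genes.

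The annotation in the deposited table gives the term histone deubiquitination to 17 genes, of which 4 are members (USP16, USP3, USP21 and USP22). The narrower term for monoubiquitinated H2A is given to 4 genes, of which 3 are members (USP16, BAP1 and MYSM1). USP12 and USP46 carry neither term.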
